A study of Homo sapiens with 12 samples.

Results

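The NRF2 pathway genes described here are NFE2L2, KEAP1, NQO1, HMOX1, GCLM, GCLC and SRXN1, and they were followed in HepG2 cells through the histone marks around their transcription starts. The members were chosen by position: each peak of 3 pooled chromatin immunoprecipitation (ChIP-seq) lists with at least 1 base within 20 kb of 1 of the 7 starts, on the genome build GRCh37 (hg19). This gave 130 regions of 273822 in all, of which 17 were H3K4me3, 34 H3K27ac and 79 H3K4me1 regions. The rule uses position only, but the genes were proposed with earlier results of these data known. HepG2 is an established cell line that came from a human liver tumour, labelled hepatocellular carcinoma. The cells were untreated, and the labels name no genotype or stress condition, so the values describe 1 state of the pathway. The study deposited 12 libraries, 3 each of H3K27ac, H3K4me1, H3K4me3 and a control that is titled as input but labelled with an anti-mouse immunoglobulin. Each list pooled the 3 libraries of a mark, going by its name. There were therefore no replicate values, no difference between regions could be set against the spread between cultures, and the depth is unknown.

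As background, NFE2L2 encodes NRF2, a transcription factor of the cap'n'collar family. KEAP1 is the adaptor that hands NRF2 to a CUL3 ubiquitin ligase for destruction. Oxidants and electrophiles modify cysteines of KEAP1, NRF2 then accumulates, pairs with a small MAF protein and binds antioxidant response elements of its target genes. In the liver these targets detoxify quinones and drugs and renew glutathione and other thiol antioxidants. H3K4me3 is a methylation found mainly at promoters, H3K27ac an acetylation of active promoters and enhancers, and H3K4me1 a methylation of enhancers and promoter flanks.

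All 7 starts lay inside an H3K4me3 region and all 7 inside an H3K27ac region, whereas 1 of 7, that of NQO1, lay inside an H3K4me1 region. The share over all gene starts was not computed, so nothing particular to these genes is read from these counts. The H3K4me1 count rested on the exact rule: it was 0 with the stronger 50% of each list, 2 with peaks within 1000 bp joined, and 6 with any base within 500 bp of the start. Strength is given below as the signal value, the authors' own number for each peak, whose reference is not stated, and it is compared only within a list. A percentile is the share of a mark's list with a signal value at or below that of the region. Over the starts, H3K4me3 signal values ran from 30.3 to 85.8 with a median of 53.8, against a median of 13.3 for the whole list. The H3K27ac values over the starts ran from 12.2 to 83.1 with a median of 25.7, against 3.15 for the whole list. The median percentile was 89.0 for H3K4me3 (range 63.2 to 99.8) and 91.7 for H3K27ac (range 80.4 to 99.96). None of the 7 regions over a start was therefore in the weaker part of either list, and the order of genes differed between the marks. Both lists also hold regions away from gene starts, and regions over starts in general were not measured. Nothing particular to these genes is therefore read from these values and percentiles.

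**Figure D1:**
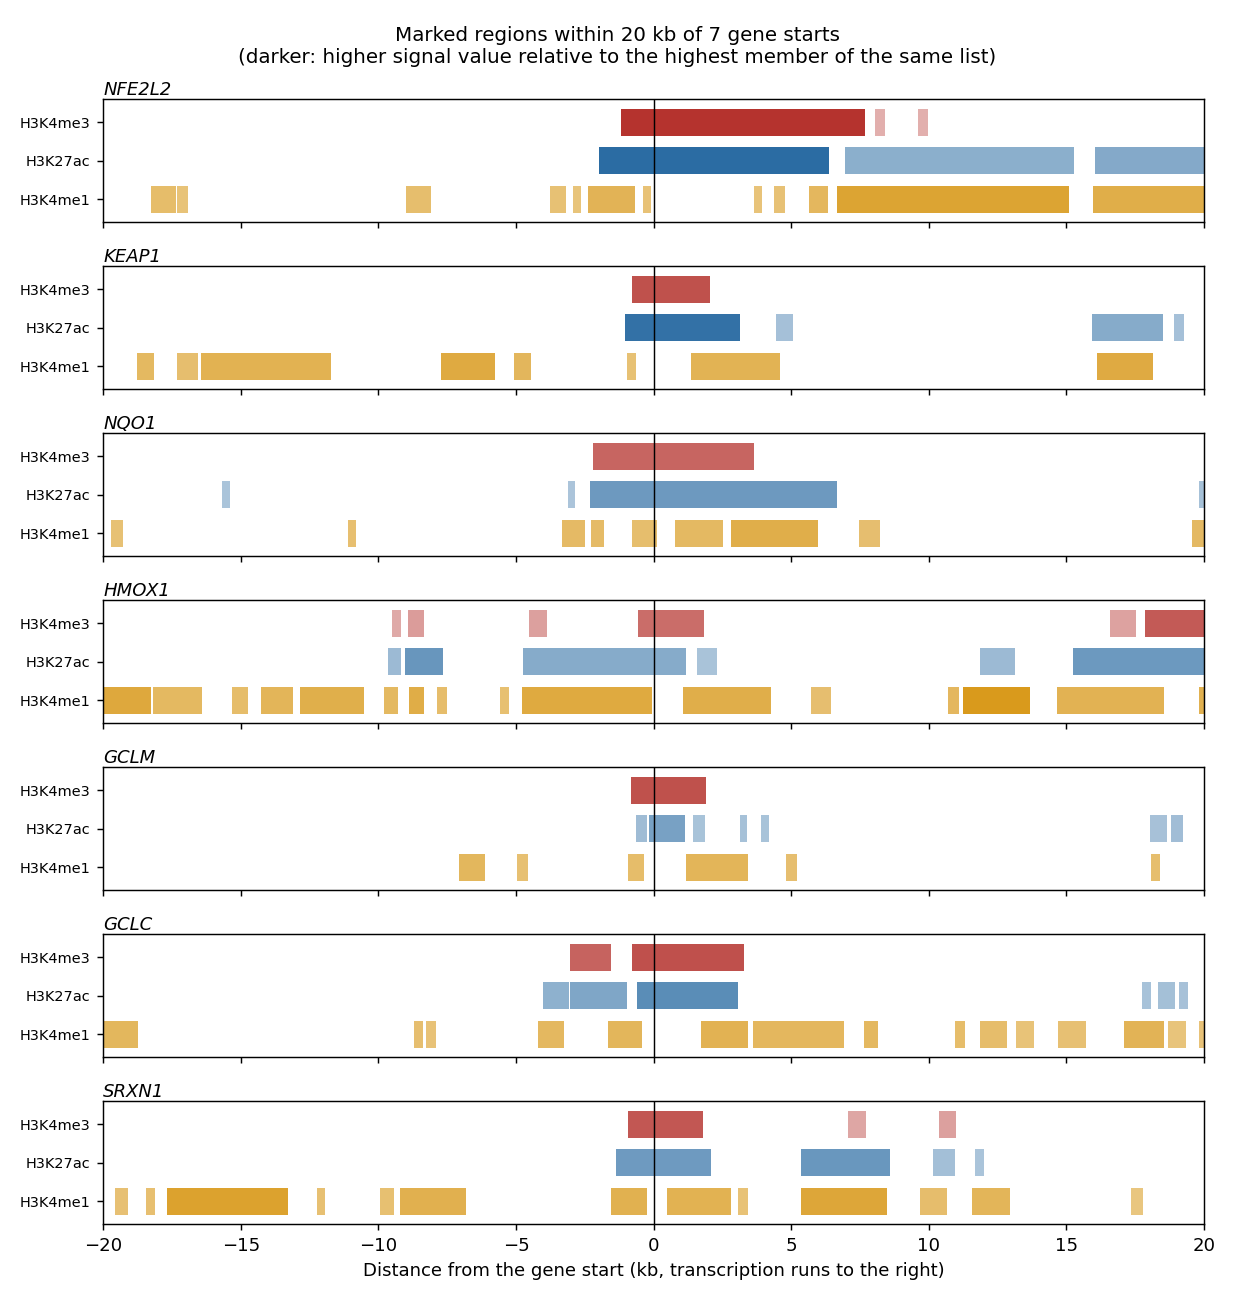
Regions of the 3 marks within 20 kb of each gene start, with distance from the start in kb on the x axis and transcription running to the right; bars are peaks, and darker bars have a higher signal value relative to the highest member of the same list. All 7 starts are covered by H3K4me3 and H3K27ac, and HMOX1 and GCLC have further regions of both marks on the upstream side.

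The regulator and its inhibitor had the strongest acetylation of the 7. At NFE2L2 (start chr2:178129859, minus strand) the H3K27ac region over the start, chr2:178123498-178131828, had a signal value of 83.1 and ranked 27 of 66586. Its H3K4me3 region, chr2:178122158-178131052, had a signal value of 85.8 and ranked 43 of 24481. That H3K4me3 region was also 8895 bp wide, rank 36 of the list by width, where the median width was 1535 bp. It reached 1193 bp upstream and 7701 bp downstream of the start, so most of it lay on the transcribed side.

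Beyond the promoter, the acetylation of NFE2L2 went on downstream in 2 more wide regions. The first ran from 6962 to 15280 bp downstream with a signal value of 10.1, and the second from 16024 to 25324 bp with 13.5. Both overlapped H3K4me1, the strongest region of which (signal value 8.48) ran from 6661 to 15098 bp downstream. Within 20 kb of the NFE2L2 start H3K27ac covered 18.7 kb downstream and 1.97 kb upstream. A pair of narrow H3K4me3 regions of 373 and 377 bp lay inside the first of these downstream stretches, each with a signal value of 1.54, which is near the bottom of the list.

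At KEAP1 (start chr19:10614054, minus strand) the H3K27ac region chr19:10610912-10615098 had a signal value of 75.0 and ranked 75 of the list. The ratio of the NFE2L2 value to the KEAP1 value was 1.11. The H3K4me3 region over the KEAP1 start, chr19:10611990-10614831, had a signal value of 53.8, and the same ratio was 1.59. KEAP1 had 1 H3K4me3 region in its window. Its strongest H3K27ac region away from the start lay 15928 to 18512 bp downstream with a signal value of 12.4, and overlapped an H3K4me1 region of 6.77. The strongest KEAP1 H3K4me1 region (6.87) lay 5768 to 7721 bp upstream and overlapped neither other mark.

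The promoter sequences of these genes were read for the antioxidant response element core, searched as TGACNNNGC on both strands. RefSeq windows of 300 bases (250 before to 50 after each annotated start, build GRCh38.p14) were found for 6 of the 7 genes, in 8 windows. HMOX1 was not matched. Positions were not carried between builds, so the starts of these windows need not be the starts used for the peaks. The core was present in 2 of the 8 windows, and in 13.3% of all 35116 windows of the table. Sequence farther than 250 bases upstream was not read, so a window without the core does not mean that the gene lacks an element. The specific form TGACTCAGC, 1 instance of the core with the same length, was in 0 of the 8 and 0.561% of all. TGANTCA, the AP-1 motif, which overlaps that specific form, was in 0 of the 8 and 7.71% of all. The windows with the core were that of GCLM and the downstream window of KEAP1, 585 bp from the upstream one. Both held the same 9 letters, and KEAP1 held a further match. They are shown with the core, or its reverse complement, in capitals, as short stretches of the gene's own strand.

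GCLM, chr1:93909446-93909474, minus strand: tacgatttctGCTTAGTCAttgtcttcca

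KEAP1, chr19:10502784-10502812, minus strand: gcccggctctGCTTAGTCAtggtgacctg

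KEAP1, chr19:10502807-10502835, minus strand: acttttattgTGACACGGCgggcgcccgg

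The GCLM match began 34 bases before the RefSeq start and the KEAP1 matches 31 and 54 bases before the downstream one. At the peaks, GCLM and KEAP1 had almost the same H3K4me3 signal value (53.9 and 53.8), while the H3K27ac value was 19.2 at GCLM and 75.0 at KEAP1. By −log10 p-value their H3K4me3 regions differed, at the 70.1 percentile for GCLM and the 89.2 percentile for KEAP1. A match is a description of letters and no measure of binding.

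GCLC and GCLM encode the catalytic and the modifier subunit of glutamate-cysteine ligase, the rate-limiting enzyme of glutathione synthesis. The 2 genes had near-equal H3K4me3 signal values and unlike acetylation. At GCLC (start chr6:53409927, minus strand) the H3K4me3 region chr6:53406625-53410716 had a signal value of 54.6, and at GCLM (start chr1:94375012, minus strand) the region chr1:94373099-94375835 had 53.9, a ratio of 1.01. The H3K27ac signal value was 38.5 at GCLC (chr6:53406864-53410527) and 19.2 at GCLM (chr1:94373869-94375183), a ratio of 2.00. The likeness in H3K4me3 held for the signal value only. By −log10 p-value the H3K4me3 regions stood at the 93.3 percentile for GCLC and the 70.1 percentile for GCLM, and they were 4092 and 2737 bp wide.

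The shape of the acetylation also differed between the subunits. GCLC had 1 region of 3664 bp over its start. Over the GCLM start the region was 1315 bp wide, the narrowest of the 7, and it was flanked by separate pieces of 416 bp (signal value 3.93) and 422 bp (1.94) inside the same H3K4me3 region. GCLM had 7 H3K27ac regions in its window, the most of any of the 7 genes, but they covered 3.75 kb in all, the least. Its strongest H3K4me1 region had a signal value of 4.36, which was the lowest of the 7 such maxima.

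GCLC carried a separate H3K4me3 region upstream, chr6:53411476-53412966, 1549 to 3039 bp before the start. Its signal value was 37.5, the 70.2 percentile of the list, above that of the start regions of NQO1 and HMOX1. An H3K27ac region of 15.5 covered nearly all of it, and a further one of 8.84 lay 3086 to 4000 bp upstream without H3K4me3 and with H3K4me1. No transcript start was looked for there, since no annotation of this build was used here. RefSeq lists GCLC-AS1 as overlapping GCLC, and where it starts relative to this region was not determined.

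NQO1 encodes a quinone reductase that is a widely used readout of NRF2 and is also a target of the aryl hydrocarbon receptor. Its start (chr16:69760533, minus strand) lay in wide regions of intermediate strength. The H3K4me3 region chr16:69756897-69762751 was 5855 bp wide (rank 272 by width) with a signal value of 36.8. The H3K27ac region chr16:69753876-69762833 was 8958 bp wide, the widest of the 7 over a start, with a signal value of 25.7. The other 3 H3K27ac regions in the NQO1 window were weak, with signal values up to 2.41.

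With peaks as listed, the NQO1 start was the only 1 of the 7 inside H3K4me1, which did not hold with the stronger 50% of each list (0 of 7) or with a margin of 500 bp (6 of 7). The region concerned ran from 766 bp upstream to 141 bp downstream with a signal value of 2.80, the 26.9 percentile of its list. The NQO1 window was also the poorest in CpG of the 8 RefSeq windows, with 14 CpG in 300 bases against 32 to 46 in the others. The median over all windows was 14. The 250 bases before the RefSeq starts of NQO1 and of SRXN1, the window richest in CpG, are shown for this contrast, with each CpG in capitals.

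NQO1, chr16:69726561-69726810, minus strand: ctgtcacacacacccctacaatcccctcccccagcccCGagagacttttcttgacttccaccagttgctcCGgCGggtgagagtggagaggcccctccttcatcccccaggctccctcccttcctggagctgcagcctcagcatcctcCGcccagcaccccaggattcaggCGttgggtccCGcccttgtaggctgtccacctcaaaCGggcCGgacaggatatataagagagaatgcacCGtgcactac

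SRXN1, chr20:653201-653450, minus strand: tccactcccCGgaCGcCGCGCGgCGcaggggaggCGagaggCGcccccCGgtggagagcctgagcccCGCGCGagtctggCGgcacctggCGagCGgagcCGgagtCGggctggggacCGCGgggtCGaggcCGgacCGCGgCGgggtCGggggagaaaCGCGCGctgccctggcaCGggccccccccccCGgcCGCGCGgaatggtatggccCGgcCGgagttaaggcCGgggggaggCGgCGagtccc

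The stretch of NQO1 held 9 CpG and that of SRXN1 38. With 6 genes matched, no relation of CpG to the marks was computed. SRXN1 encodes sulfiredoxin, which restores overoxidised peroxiredoxins. At its start (chr20:634014, minus strand) the H3K4me3 region chr20:632215-634954 had a signal value of 47.8 and the H3K27ac region chr20:631930-635383 had 24.8.

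The strongest H3K27ac region of the SRXN1 window was not the one over the start. It ran from 5346 to 8593 bp downstream (chr20:625421-628668) with a signal value of 28.2, a ratio of 1.14 to the start region. An H3K4me1 region of 7.84 from 5341 to 8485 bp covered almost the same stretch, with a small H3K4me3 region (639 bp, signal value 3.28) inside it. A further H3K4me3 region lay 10368 to 10973 bp downstream with a signal value of 4.64. On the upstream side SRXN1 had 0 H3K27ac regions apart from the one over the start, but its strongest H3K4me1 region lay there, 13267 to 17663 bp upstream, with a signal value of 9.21 and neither other mark.

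HMOX1 encodes heme oxygenase, which opens the heme ring and yields biliverdin, iron and carbon monoxide. The human gene is known for upstream enhancers with several antioxidant response elements, bound by NRF2 and by the repressor BACH1. The regions over its start (chr22:35777060, plus strand) had the lowest signal values of the 7 for both marks. The H3K4me3 region chr22:35776486-35778910 had a signal value of 30.3, and the H3K27ac region chr22:35772299-35778257 had 12.2. The NFE2L2 values were 2.83 and 6.82 times these. The H3K27ac summits of the HMOX1 and NQO1 start regions lay 1981 bp upstream and 2338 bp downstream of the starts. The H3K27ac values of these 2 regions therefore need not be those at the starts themselves.

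Upstream of HMOX1 there were 2 sites with H3K4me3 apart from the start. At the nearer, H3K4me3 alone was separate. It lay 3884 to 4519 bp before the start, as a region of 636 bp with a signal value of 4.60. The H3K27ac region over the start reached back over it to 4761 bp, with its summit 1981 bp upstream. H3K4me1 covered the same stretch from 65 to 4777 bp upstream with a signal value of 7.04. The H3K27ac summit of HMOX1 was the only 1 of the 7 upstream of a start.

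The farther site held the strongest acetylation of the HMOX1 window. Its H3K27ac signal value of 28.9, the 93.3 percentile of the list, was 2.37 times that of the region over the start. The H3K27ac region of this site, chr22:35768036-35769410, lay 7650 to 9024 bp upstream. Inside it lay an H3K4me3 region of 595 bp (signal value 5.89, summit 8628 bp upstream) and an H3K4me1 region of 532 bp (6.24). A weaker neighbour of 481 bp (H3K27ac, 4.82) with H3K4me3 of 2.43 followed 9184 to 9664 bp upstream. All 3 marks were thus present at both sites, with H3K4me3 far below its value over the start.

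Downstream of HMOX1 an H3K27ac region of 26.3 ran from 15230 to 20142 bp, with H3K4me3 regions of 45.5 (17849 to 20230 bp) and 4.11 (16597 to 17542 bp). RefSeq lists MCM5 as the next gene after HMOX1. Whether these regions lie at its start was not determined, because the table's build is not that of the peaks. The highest H3K4me1 signal value of all 7 windows, 11.6, rank 718 of 182755, lay 11233 to 13667 bp downstream with an H3K27ac region of 4.73.

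Some of these patterns were set against the whole lists. A stronger H3K27ac region lay within 20 kb in 2 of 7 genes, HMOX1 and SRXN1, and at 36.2% of the 18704 H3K4me3 summits that lay inside an H3K27ac region. Another H3K4me3 region lay within 20 kb in 4 of 7 genes (NFE2L2, HMOX1, GCLC and SRXN1) and at 57.4% of all H3K4me3 regions. Neither share of the genes was above that of the lists.

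**Figure D2:**
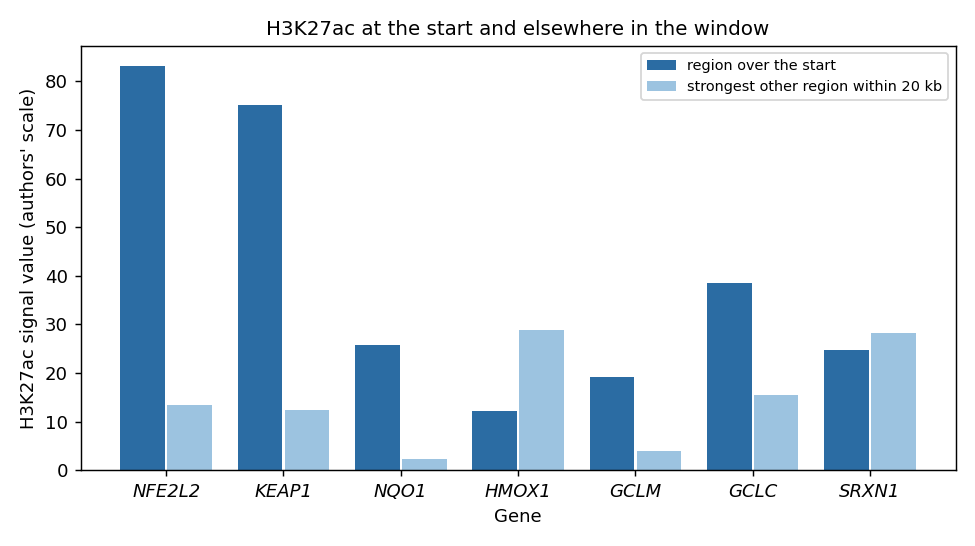
H3K27ac signal value (y axis, the authors' scale, 1 pooled list) of the region over each gene start and of the strongest other region within 20 kb. The other region is higher at HMOX1 (28.9 against 12.2) and SRXN1 (28.2 against 24.8) and lower at the remaining genes.

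**Figure D3:**
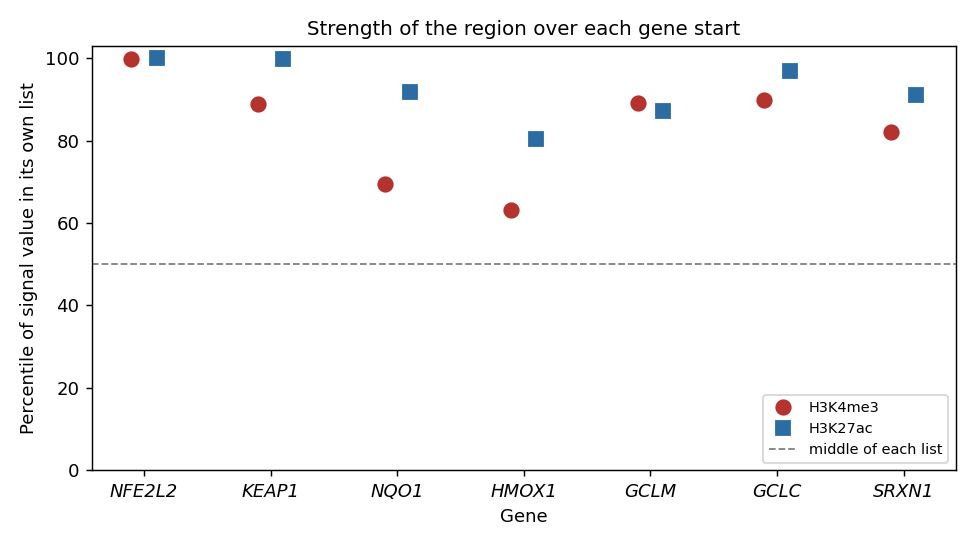
Percentile of the signal value of the region over each start within its own list, for H3K4me3 (circles) and H3K27ac (squares); the dashed line marks the middle of each list. NFE2L2 is at the top of both lists, and HMOX1 has the lowest value in each, 63.2 and 80.4.

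The regions over the starts lay mostly on the transcribed side. The H3K4me3 region reached farther downstream than upstream in 7 of 7 genes, from 1799 bp at SRXN1 to 7701 bp at NFE2L2. Its summit was 327 to 932 bp downstream in all 7. For H3K27ac both held in 6 of 7 genes, the exception being HMOX1. The same measure over whole lists would need strands of all starts, which were not used here.

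H3K4me1 was interrupted at the H3K4me3 summit of each gene. Of the 7 summits, 7 were covered by H3K27ac and 0 by H3K4me1. Over all 24481 H3K4me3 summits these shares were 76.4% and 40.6%. In the stronger 50% of that list, which holds all 7 of the start regions, they were 97.4% and 9.77%. Most H3K4me3 regions of that strength thus had both features of the 7 genes. The H3K4me1 gap that held the summit was 650 bp wide at NQO1, the narrowest, and 3713 bp at NFE2L2, the widest, with a median of 1514 bp.

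The edges of the gaps were nearer to the start on the upstream side in 6 of 7 genes. At NFE2L2 the gap began 76 bp upstream and ended 3638 bp downstream. At KEAP1 it went from 652 bp upstream to 1349 bp downstream, and at HMOX1 from 65 bp upstream to 1055 bp downstream. At GCLM it went from 344 to 1171 bp, at GCLC from 438 to 1714 bp and at SRXN1 from 239 to 491 bp, upstream and downstream respectively. At NQO1 the whole gap, from 141 to 792 bp, was downstream. Except at NQO1, the start thus lay inside the gap and nearer to its upstream rim, which holds for the starts used here. Each gap was chosen as the one that held the H3K4me3 summit, 327 to 932 bp downstream in all 7. That choice favours a nearer upstream rim. The same distances over all H3K4me3 summits are not given here, so nothing particular to the genes is read from them. RefSeq has a further, downstream window at NFE2L2 and KEAP1, 596 and 585 bp from the upstream one, and distances from those starts were not measured.

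**Figure D4:**
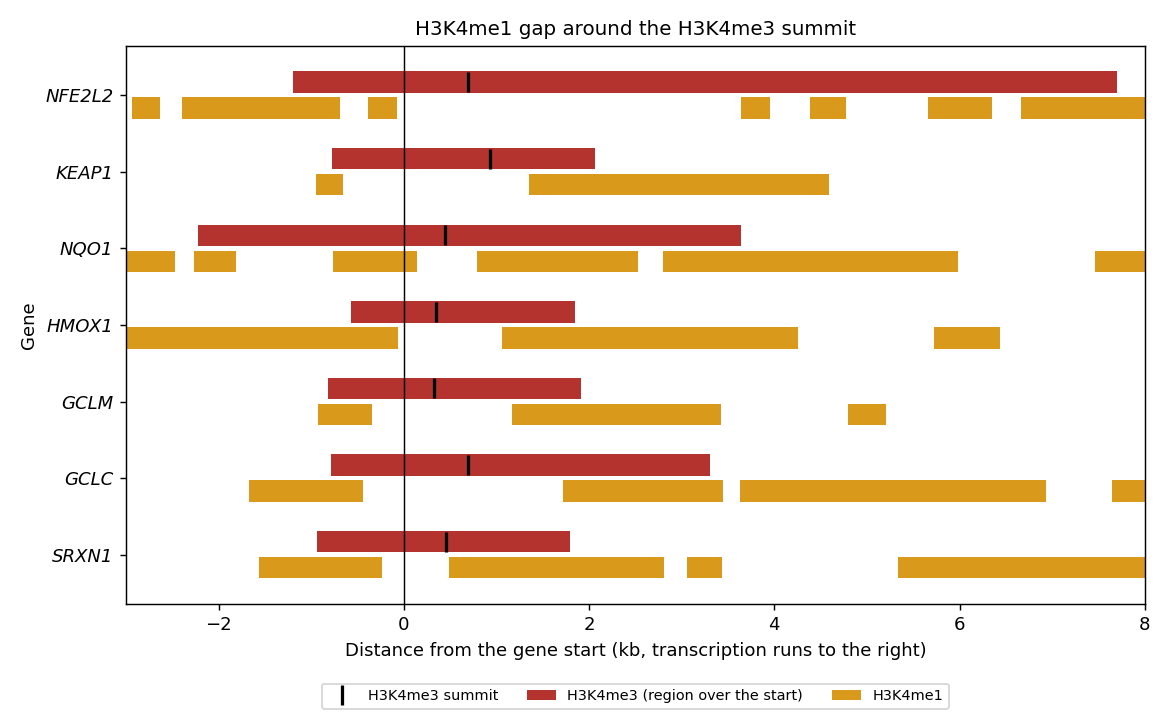
H3K4me3 region over each start (red, with its summit as a black tick) and H3K4me1 regions (orange) by distance from the start in kb, transcription to the right. Each of the 7 ticks falls between H3K4me1 bars, and the gap is widest at NFE2L2 (3713 bp).

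Away from the starts, the windows held 27 H3K27ac regions. Of these, 10 overlapped H3K4me3, 13 overlapped H3K4me1 without H3K4me3, and 4 overlapped neither. The 17 without H3K4me3 lay downstream in 14 cases and upstream in 3. This split has no whole-list measure beside it, and the 17 became 8 with peaks within 1000 bp joined, so no bias is read from it. Of the 17, 12 had a signal value under the list median of 3.15, against 65.8% of all 45490 H3K27ac regions without H3K4me3. GCLM and GCLC had 4 each, KEAP1 and NQO1 3 each, and NFE2L2, HMOX1 and SRXN1 1 each. The 12 of 17 is near that share, so nothing particular to these genes is read from it. The 5 regions above the median were those named for NFE2L2 (13.5), KEAP1 (12.4), GCLC (8.84) and HMOX1 (4.73), and 1 of 3.49 at GCLM. Stronger distal regions that overlapped a small H3K4me3 peak, such as those of HMOX1 (28.9), SRXN1 (28.2) and NFE2L2 (10.1), are not among the 17. That of NFE2L2 also overlapped the far end of the H3K4me3 region over the start, which reached 7701 bp downstream.

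Counting all 34 H3K27ac regions, starts included, 17 (50%) overlapped H3K4me3 against 31.7% of the list, and 29 overlapped H3K4me1 against 87.4% of the list. Since 7 of the 34 were taken at gene starts, the first share was raised by the choice of windows. Of the 79 H3K4me1 regions, 37 overlapped H3K27ac and 26 overlapped H3K4me3, against 33.4% and 18.9% of the list. These shares were likewise taken around starts that carry both marks, so nothing particular to the genes is read from them. The remaining 42 that overlapped neither mark were spread over the 7 windows, from 3 at NQO1 and GCLM to 10 at GCLC. Of these, 29 lay upstream, as did 42 of all 79 H3K4me1 regions. The share with neither mark was not computed over the whole list, so nothing particular to the genes is read from these counts. A single region of the 130, an H3K4me1 region of SRXN1 with a signal value of 1.66, had a q-value above 0.05.

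The length covered by each mark separated NFE2L2 and HMOX1 from GCLM. Within 20 kb of its start NFE2L2 had 9.65 kb of H3K4me3 and 20.6 kb of H3K27ac, and HMOX1 had 24.9 kb of H3K4me1, each the highest of the 7. GCLM had the lowest length for each mark, with 2.74 kb of H3K4me3, 3.75 kb of H3K27ac and 4.92 kb of H3K4me1. Around all 24481 H3K4me3 summits the medians were 3.12, 4.10 and 8.60 kb. The NFE2L2 lengths stood at the 96.2 percentile for H3K4me3 and the 97.6 percentile for H3K27ac of these summits, the HMOX1 length at the 95.7 percentile for H3K4me1, and the GCLM lengths at the 43.1, 46.8 and 30.9 percentile. Part of the HMOX1 length lay in the downstream regions whose gene was not determined.

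**Figure D5:**
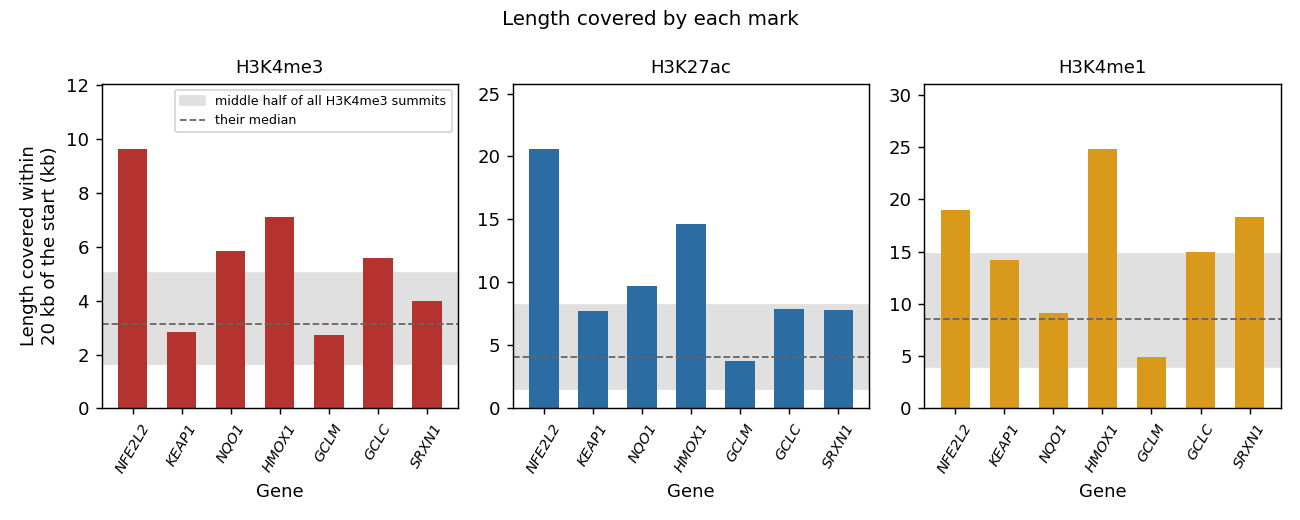
Length in kb covered by each mark within 20 kb of each gene start (bars), with the median (dashed) and interquartile range (grey) of the same length around all 24481 H3K4me3 summits. NFE2L2 is highest for H3K4me3 and H3K27ac, HMOX1 for H3K4me1, and GCLM is lowest in all 3 panels.

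For H3K4me3, the order of the genes depended on whether the signal value or the −log10 p-value of the deposited lists was used. For H3K27ac the 7 regions over the starts had the same order by both. The H3K4me3 region over the GCLM start stood at the 89.0 percentile by signal value and at the 70.1 percentile by p-value. That of SRXN1 stood at 82.1 and 92.5. Over all H3K4me3 regions of a chromosome, the median of the p-value percentile minus the signal percentile was -0.57 on chromosome 1, where GCLM lies, and 7.16 on chromosome 20, where SRXN1 lies. The part of copy number or read depth in this was not tested.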

How the data were processed

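Per the labels, 12 HepG2 libraries (3 for each of 3 marks and a control) were made from sonicated fixed cells. The submitters' processing notes name MACS2 and hg19, with no version, threshold or use of the control. The aligner is not given in the sources used here. The deposited lists give a signal value, the −log10 p-value and q-value, and a score (10 times the −log10 p-value, capped at 1000, except for 12 H3K4me1 peaks), which was not used. Here, regions within 20 kb of the 7 starts were taken, with overlap of at least 1 bp, and described with Python 3.11.15, numpy 2.4.6, pandas 2.3.3 and matplotlib 3.10.9. Interval code was checked on simulated intervals. With pooled lists there was no test. The genes and measures were chosen with earlier results of these data known. The named regions were those over a start, the strongest of each mark per window, and the H3K4me3 regions away from starts, and others were chosen after their values were seen. A GRCh37 annotation was not used here, so exons, other pathway genes and liver marker genes were not analysed.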

Additional observations from a re-analysis of the deposited data

How the results depend on the processing

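No paired analysis was possible because the pooled lists carry no replicate values, and for the same reason no library could be left out. Over 9 results 50 alternatives gave a value. Of these, 26 stayed within 1.5 times a count or within the 95% Wilson interval of a percentile, and 24 moved. That interval was computed with the number of regions in the whole list (24481 or 66586). It is therefore narrow, does not measure the spread between the 7 genes, and counts small shifts of a percentile as moved. All 7 starts stayed inside H3K4me3 under each alternative run and inside H3K27ac under each that kept the position rule, while 5 of 7 had an H3K27ac summit within 1000 bp of the start. The H3K4me1 count of starts was 1 as reported, 0 with the stronger 50% of each list, 2 with peaks within 1000 bp joined, 6 with any base within 500 bp of the start and 6 with a summit within 1000 bp. With the stronger 50%, the windows held 9 H3K4me3, 19 H3K27ac and 41 H3K4me1 regions, 8 of the H3K27ac without H3K4me3, and the median percentiles were 77.9 (H3K4me3) and 83.4 (H3K27ac). Joining gave 19 H3K27ac and 42 H3K4me1 regions, 8 H3K27ac without H3K4me3, and percentiles of 88.2 and 87.7. A −log10 q-value of at least 5 gave percentiles of 88.5 and 89.3. Summits within 1000 bp gave 96.8 for H3K27ac, over 5 genes. Windows of 10 kb held 20 H3K27ac, 45 H3K4me1 and 5 H3K27ac regions without H3K4me3, and windows of 50 kb held 72, 137 and 48. Fewer or joined regions follow from how these alternatives are built. So do the lower percentiles with the stronger 50%, since that part of each list holds all 7 start regions of H3K4me3 and of H3K27ac. The depth of the libraries is unknown, so what it limits could not be given.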
